A study of Homo sapiens with 10 samples.

Results

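EPCAM and 4 genes of the carcinoembryonic antigen cell adhesion molecule (CEACAM) family, CEACAM1, CEACAM5, CEACAM6 and CEACAM7, were followed across 4 lines made from PC3 cells, an established line of human prostate cancer. They are 5 of the 23170 gene entries, and 9 of the 37557 isoform entries, that carry one of these symbols. The 5 genes were chosen by their names with the expression values already known, so their levels are given as a description and were not tested.

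RNA-seq was run on 10 samples: 2 of PC3-Epi, 3 of PC3-EMT14, 3 of PC3-EMT14-OVOL1 and 2 of PC3-EMT14-OVOL2. PC3-Epi is a luciferase-positive epithelial subpopulation of PC3. PC3-EMT14 is a mesenchymal subpopulation that was isolated after PC3-Epi cells had been co-cultured with IL4-treated macrophages made from monocytes. The OVOL lines are PC3-EMT14 cells that carry a lentiviral vector for OVOL1 or OVOL2, zinc finger transcription factors of epithelial cells. Each line is 1 isolated or transduced population. The authors' FPKM value is a count of fragments scaled to transcript length and, by upper-quartile normalization, to the library. It combines the samples of a line, so a line has 1 pooled value in each table, without the spread between samples or the depth. The tables also hold the authors' own tests, which were not used, and no test was run on the pooled values. A gene was counted as higher or lower in a comparison when its pooled values differed at least 2-fold and the higher one reached 1 FPKM.

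EPCAM is a single-pass membrane glycoprotein of epithelial cells that mediates adhesion between like cells and is released in pieces by membrane proteases. It sits in membrane complexes with claudin 7, tetraspanins and CD44, and it is a common marker of carcinoma cells. The CEACAM proteins are adhesion molecules of the immunoglobulin superfamily. CEACAM1 spans the membrane and can carry a cytoplasmic tail with inhibitory tyrosine motifs, whereas CEACAM5 (the carcinoembryonic antigen, CEA), CEACAM6 and CEACAM7 are held in the membrane by a glycosylphosphatidylinositol (GPI) anchor and are best known from the epithelium of the gut.

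On hg19 the EPCAM entry (XLOC_011583) lies at chr2:47596287-47614167, on the plus strand in the annotation of that assembly. The 4 CEACAM genes lie within the CEACAM cluster of chromosome 19. CEACAM7 (XLOC_011123) is at chr19:42177235-42192096 and CEACAM1 (XLOC_011137) at chr19:43011458-43032661, both on the minus strand. CEACAM5 (XLOC_010337) at chr19:42212530-42234437 and CEACAM6 (XLOC_010338) at chr19:42259398-42276113 are on the plus strand. The canonical transcripts have 9 exons for EPCAM, 9 for CEACAM1, 10 for CEACAM5, 6 for CEACAM6 and 5 for CEACAM7.

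The CEACAM genes are related in sequence, also upstream of their start sites. The RefSeq promoter table (GRCh38.p14) matched 4 of the 5 members, the CEACAM genes. The sequences shown are those of the 3 CEACAM members that reached 1 FPKM in a line, because these relatives, of which CEACAM5 and CEACAM6 lie side by side, have related upstream sequence and unlike levels. Each runs from 250 to 51 bases before the RefSeq start site, 5′ to 3′ on the strand of the gene, and its position on hg19 was found by an exact match, which was the only one on the chromosome. None of the 3 windows overlaps an exon of a member in the annotation. Capitals mark matches to a pair of short motifs on either strand.
CEACAM5, chr19:42212295-42212494, plus strand: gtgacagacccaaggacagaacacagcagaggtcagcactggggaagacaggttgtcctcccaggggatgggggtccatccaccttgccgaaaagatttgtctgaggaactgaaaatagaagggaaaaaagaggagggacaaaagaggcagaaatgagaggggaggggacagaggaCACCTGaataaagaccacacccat
CEACAM6, chr19:42259188-42259387, plus strand: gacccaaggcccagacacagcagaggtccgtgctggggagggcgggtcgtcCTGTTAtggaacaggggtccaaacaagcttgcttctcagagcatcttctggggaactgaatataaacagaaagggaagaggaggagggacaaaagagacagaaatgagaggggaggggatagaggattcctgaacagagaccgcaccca
CEACAM1, chr19:43032684-43032883, minus strand: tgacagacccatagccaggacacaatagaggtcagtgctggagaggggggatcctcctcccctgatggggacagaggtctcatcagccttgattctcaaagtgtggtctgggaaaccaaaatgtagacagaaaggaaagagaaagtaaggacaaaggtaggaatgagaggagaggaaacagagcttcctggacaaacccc

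Over a global alignment of these windows, CEACAM5 and CEACAM6 were identical at 152 of 193 aligned bases with 14 gap positions. CEACAM1 and CEACAM5 were identical at 137 of 187 aligned bases with 26 gap positions, and CEACAM1 and CEACAM6 at 143 of 189 with 22. The window of CEACAM7, which is hardly expressed in these lines, matched that of CEACAM5 at 168 of 194 aligned bases with 12 gap positions. Unlike the other 3, this window is partly transcribed in the annotation, with 47 of its 200 bases in an exon of a member, and its RefSeq start site lies 103 bases away from the end of the deposited locus. Within that limit, the most alike pair joins a member that reached 8.83 FPKM with one that stayed under 0.01 FPKM in every line.

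The first motif was CACCTG, an E-box that ZEB1 can bind. It was found in the CEACAM5 window, 74 bases before the start, and in 14.9% of the 35093 promoters of the table over the same 200 bases. The second was a core of the OVOL consensus, searched as CCGTTA or CTGTTA or ACGTTA or ATGTTA, and its matches do not overlap those of the first. It was found in the CEACAM6 window as CTGTTA, 199 bases before the start, and in 13.8% of all promoters. The bases just before it in that window, gtc, do not match the study's full OVOL2 consensus, so only the core is met. The windows of CEACAM1 and CEACAM7 held neither set of letters. These are letter matches only, and binding was not measured.

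EPCAM was the most abundant of the 5 genes in every line. Its pooled level was 22.7 to 23.4 FPKM in PC3-EMT14 over the 3 tables that hold that line. It was 87.6 FPKM in PC3-EMT14-OVOL1, 151 FPKM in PC3-EMT14-OVOL2 and 224 FPKM in PC3-Epi. The order was therefore PC3-EMT14, the OVOL1 line, the OVOL2 line and PC3-Epi. The differences between tables for one line were smaller than each step. They come from scaling and are no measure of the spread between samples. EPCAM was already well expressed in the mesenchymal line, above 84.8% of all gene entries, and stood above 98.6% of them in PC3-Epi.

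Against PC3-EMT14, EPCAM was 3.81-fold higher in the OVOL1 line, 6.63-fold higher in the OVOL2 line and 9.58-fold higher in PC3-Epi. Counted on the linear scale, the rise over PC3-EMT14 was 32.8% of the PC3-Epi rise in the OVOL1 line and 65.6% in the OVOL2 line. The 3 ratios rest on the same PC3-EMT14 libraries and are not independent of each other.

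CEACAM5, which encodes CEA, had the largest ratios and the lowest starting level among the 3 genes that were higher in all 3 lines. Its level in PC3-EMT14 was 0.0808 to 0.0834 FPKM. It was 5.53 FPKM in the OVOL1 line, 3.21 FPKM in the OVOL2 line and 8.83 FPKM in PC3-Epi. The OVOL1 line thus stood above the OVOL2 line, the reverse of the order seen for EPCAM.

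The ratio of CEACAM5 to PC3-EMT14 was 67.8 in the OVOL1 line, 39.7 in the OVOL2 line and 106 in PC3-Epi. On the linear scale the rise in the OVOL1 line was 63.7% of that in PC3-Epi and the rise in the OVOL2 line 36.9%. The divisor of these ratios is a value under 0.1 FPKM from an unknown number of reads. With 1 FPKM added to each value, the log2 ratios of 6.08, 5.31 and 6.73 became 2.59, 1.96 and 3.18. Their size thus depends on the low divisor. That divisor is nearly the same in all 3 ratios, so their order only repeats that of the levels and could not change with this setting.

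CEACAM6, a GPI-anchored relative of CEACAM5 and the next gene along the chromosome, was at 0.504 to 0.520 FPKM in PC3-EMT14. It was at 1.79 FPKM in the OVOL1 line, 2.21 FPKM in the OVOL2 line and 3.25 FPKM in PC3-Epi. The lines were ordered as for EPCAM, at levels about those of weakly expressed genes. The ratios to PC3-EMT14 were 3.51, 4.38 and 6.24. With 1 FPKM added to each value, the log2 ratio in the OVOL1 line was 0.88, under the 2-fold limit, and it was 1.09 in the OVOL2 line and 1.48 in PC3-Epi.

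CEACAM1, the transmembrane member, differed least between the lines. Its level was 2.97 to 3.07 FPKM in PC3-EMT14, 4.84 FPKM in the OVOL1 line, 6.13 FPKM in the OVOL2 line and 5.32 FPKM in PC3-Epi. The highest value was in the OVOL2 line, above PC3-Epi. The ratios to PC3-EMT14 were 1.61, 2.06 and 1.73, so CEACAM1 passed the 2-fold limit in the OVOL2 line alone, and narrowly. With the PC3-EMT14 value taken from the table with PC3-Epi, or with 1 FPKM added to each value (log2 ratio 0.84), it did not pass there either.

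CEACAM7, a GPI-anchored member of the gut epithelium, was close to 0 in all lines. Its level was 0.00167 to 0.00173 FPKM in PC3-EMT14, 0.00859 FPKM in the OVOL1 line, 0.00310 FPKM in the OVOL2 line and 0.00635 FPKM in PC3-Epi. At such levels, with the read number unknown, its ratios of 5.08, 1.85 and 3.68 were not counted.

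**Figure D1:**
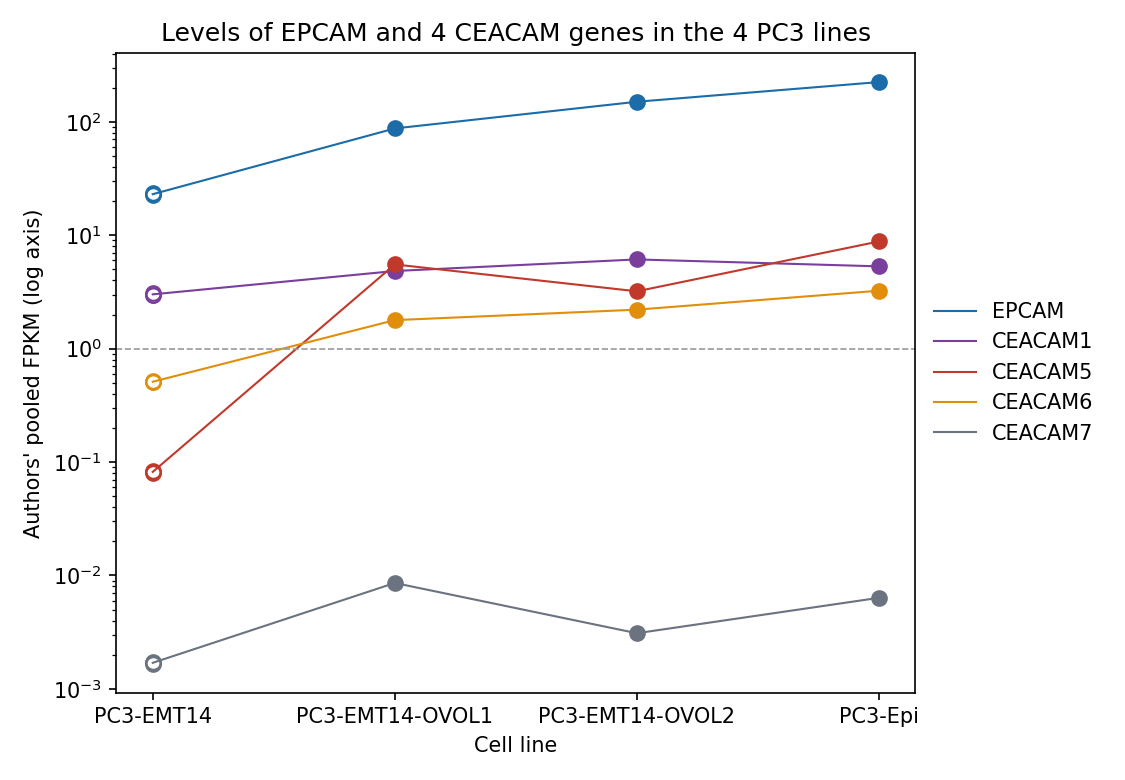
Pooled FPKM (log axis) of EPCAM, CEACAM1, CEACAM5, CEACAM6 and CEACAM7 in the 4 lines; open circles are the PC3-EMT14 values of 3 tables, filled circles the value of each other line in its table against PC3-EMT14, the thin lines only link the points of a gene, and the dashed line is 1 FPKM. EPCAM is at 22.7 to 23.4 FPKM in the mesenchymal line and at 224 FPKM in the epithelial one, CEACAM5 crosses 1 FPKM in all 3 other lines, and CEACAM7 stays under 0.01 FPKM.

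In counts, 3 of the 5 members (EPCAM, CEACAM5 and CEACAM6) were higher in the OVOL1 line than in PC3-EMT14, where 2.43% of the 12197 genes at 1 FPKM or more were higher. In the OVOL2 line 4 of the 5 were higher, CEACAM1 being the fourth, against 4.42% of 12307 genes. In PC3-Epi 3 of the 5 were higher, against 7.37% of 12441 genes. No member was lower in any of these comparisons, where 1.54%, 2.93% and 8.34% of genes were lower, and CEACAM7 was the member that stayed under 1 FPKM in each. Because the members were chosen with these values known, nothing is read from the counts beyond the description.

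The place of each ratio among all genes gives its size a scale. In PC3-Epi against PC3-EMT14 the log2 ratio was 3.26 for EPCAM, 6.73 for CEACAM5 and 2.64 for CEACAM6, whereas from the 5th to the 95th percentile the log2 ratios of all genes at 1 FPKM or more ran from -1.41 to 1.25. The CEACAM1 value of 0.79 lay inside that range. In the OVOL1 comparison the range was narrower, from -0.51 to 0.53, and the CEACAM1 value of 0.69 lay just outside it. In the OVOL2 comparison it ran from -0.68 to 0.86, and all 4 members at 1 FPKM or more lay above it.

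**Figure D2:**
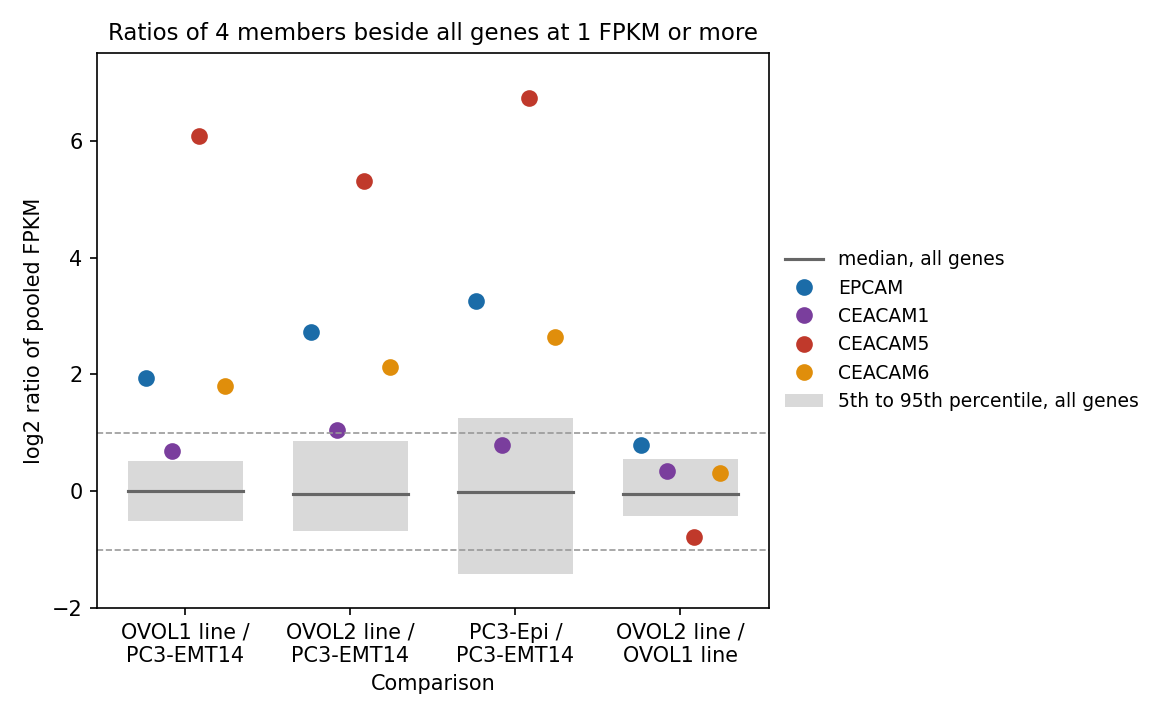
log2 ratios of pooled FPKM (vertical axis) in the 4 comparisons; grey bars span the 5th to the 95th percentile of all genes at 1 FPKM or more in the higher line, the short lines are their medians, the points are the 4 members at 1 FPKM or more, and the dashed lines mark 2-fold. CEACAM5 lies at 6.08, 5.31 and 6.73 against PC3-EMT14 and at -0.77 in the OVOL2 line against the OVOL1 line, where EPCAM lies at 0.80.

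The direct table sets the OVOL lines beside each other, without PC3-EMT14 in the ratio. EPCAM was at 86.6 FPKM in the OVOL1 line and 150.5 FPKM in the OVOL2 line, 1.74-fold higher with OVOL2. CEACAM5 was at 5.47 FPKM and 3.21 FPKM, 1.71-fold higher with OVOL1. CEACAM6 was 1.25-fold and CEACAM1 1.28-fold higher with OVOL2. None of the 5 members was counted as higher or lower at 2-fold, where 1.90% of the 12188 genes were higher in the OVOL2 line and 1.17% were lower.

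At 1.5-fold, EPCAM was higher in the OVOL2 line, as were 4.74% of genes, and CEACAM5 was lower, as were 2.72%. CEACAM5 was thus placed opposite to the other 3 expressed members, at a log2 ratio of -0.77 against 0.80 for EPCAM, 0.35 for CEACAM1 and 0.32 for CEACAM6. With no spread between samples, whether CEACAM5 differs between the OVOL lines was not tested.

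The factors themselves were far from equal in level. OVOL1 was at 11.3 FPKM in the OVOL1 line, 4.25 FPKM in PC3-Epi and at most 0.0243 FPKM in PC3-EMT14. OVOL2 was at 831 FPKM in the OVOL2 line, 9.91 FPKM in PC3-Epi and 0.562 FPKM in the OVOL1 line. By the study's methods the factors were also carried by different lentiviral constructs, that of OVOL2 with a V5 tag. The level of the vector's product, the construct and the identity of the factor therefore cannot be told apart in the difference between the OVOL lines. No line with an empty vector was among the samples, so the ratios to PC3-EMT14 hold the effect of the vector as well.

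The make-up of the CEACAM family differed between lines more than the levels of CEACAM1 did. The tables hold 13 CEACAM entries, 9 of them outside the members. In PC3-EMT14 the summed level of the family was 4.23 FPKM in the table with the OVOL1 line, and CEACAM1 held 70.9% of it, CEACAM6 12.0% and CEACAM5 1.93%. In the OVOL1 line the sum was 13.2 FPKM, of which CEACAM5 held 41.9% and CEACAM1 36.7%.

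In the OVOL2 line the sum was close to that, 12.5 FPKM, but CEACAM1 held 49.1% of it and CEACAM5 25.7%. In PC3-Epi the sum was 19.7 FPKM, of which CEACAM5 held 44.8%, CEACAM1 27.0% and CEACAM6 16.5%. CEACAM5 was thus the leading CEACAM in PC3-Epi and the OVOL1 line, and CEACAM1 in PC3-EMT14 and the OVOL2 line. In the OVOL1 line the margin was small, 5.53 FPKM for CEACAM5 beside 4.84 FPKM for CEACAM1, with no spread to set it against. FPKM is scaled to transcript length, so these levels can be set beside each other.

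**Figure D3:**
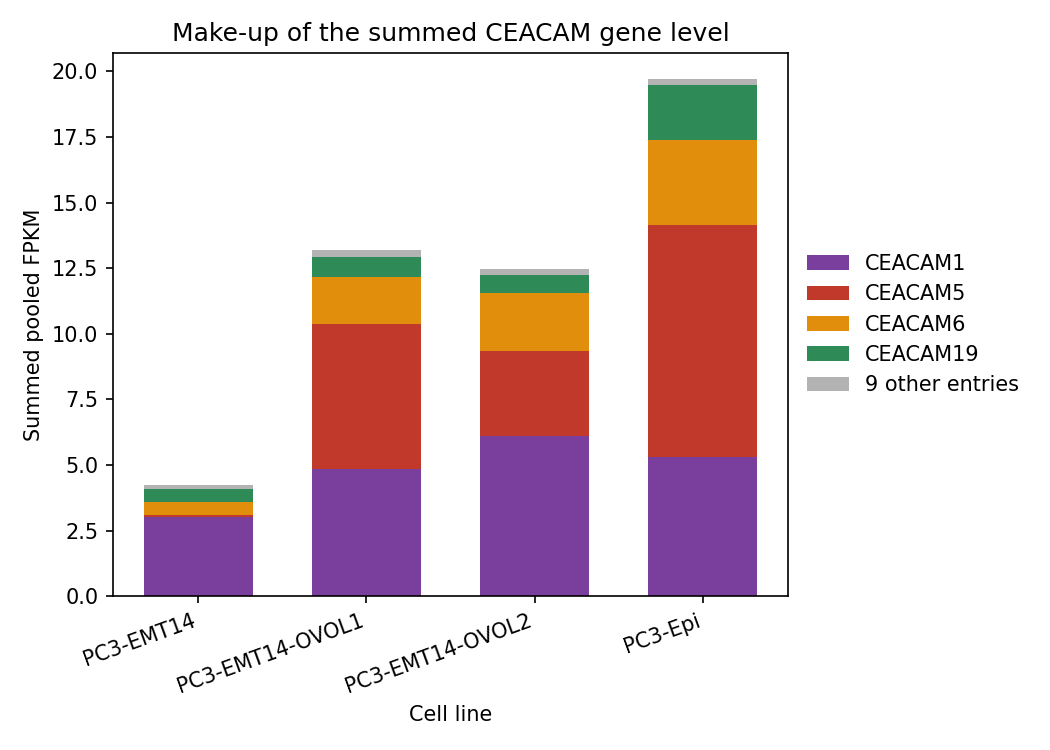
Summed pooled FPKM of the 13 CEACAM entries (vertical axis) in each line, split by gene; PC3-EMT14 is from its table with PC3-EMT14-OVOL1 and each other line from its table against PC3-EMT14. The sum is 4.23 FPKM in PC3-EMT14, mostly CEACAM1, and 19.7 FPKM in PC3-Epi, where CEACAM5 is the largest part.

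Outside the members, only CEACAM19 reached 1 FPKM in a line. This family member, whose gene lies apart from the main cluster, was at 0.484 FPKM in PC3-EMT14 in the table with the OVOL2 line, and at 0.765 FPKM in the OVOL1 line, 0.705 FPKM in the OVOL2 line and 2.09 FPKM in PC3-Epi. It was 4.17-fold higher in PC3-Epi and did not reach 1 FPKM with either OVOL. The other 8 entries were at 0.203 FPKM or less, and 2 of them, CEACAM4 and CEACAM20, were listed at 0 in every line. Of the 20 other CEACAM and pregnancy-specific glycoprotein (PSG) genes looked at, CEACAM19 in PC3-Epi was the one value counted as higher, and none was lower.

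Reads shared between family members are a limit on these values. Of the 50-base words of the canonical transcript, 50 bases being the read length of the study, 2.67% in CEACAM5, 4.79% in CEACAM6 and 4.18% in CEACAM1 also occur in a transcript of another CEACAM or PSG gene. CEACAM5 and CEACAM6 share most with each other, 40 words. CEACAM7 and EPCAM share none. How the correction for reads with several places divided these reads was not analysed here.

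Along the chromosome, the CEACAM5 entry has CEACAM7 20434 bases before it and CEACAM6 24961 bases after it. CEACAM3, a granulocyte receptor 24421 bases after CEACAM6, was at 0.103 to 0.107 FPKM in PC3-EMT14 and at 0.203, 0.127 and 0.139 FPKM in the OVOL1 line, the OVOL2 line and PC3-Epi. CEACAM4 and CEACAM21, on the other side, did not pass 0.01 FPKM. The higher levels thus fell on CEACAM5 and CEACAM6, which lie side by side, and the entries on either side of that pair stayed under 1 FPKM.

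From CEACAM21 to CEACAM8 the cluster window holds 31 entries over 1017 kb, and 18 of them reached 1 FPKM in each comparison with PC3-EMT14. Of the 15 that are no CEACAM gene, 0 were higher or lower in either OVOL line. Over all genes at 1 FPKM or more, 2.43% were higher and 1.54% lower in the OVOL1 line, and 4.42% and 2.93% in the OVOL2 line. At such shares a count of 0 among 15 genes is near that of all genes. In PC3-Epi 0 of these 15 were higher and 3 were lower, where 7.37% and 8.34% of all genes were. Among the lower were CD79A, a B cell receptor chain, and the transcription factor POU2F2. Some broadly expressed genes of the window, such as CIC, are listed at or near 0 in every line, so a value of 0 in these tables may be a failed estimate.

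**Figure D4:**
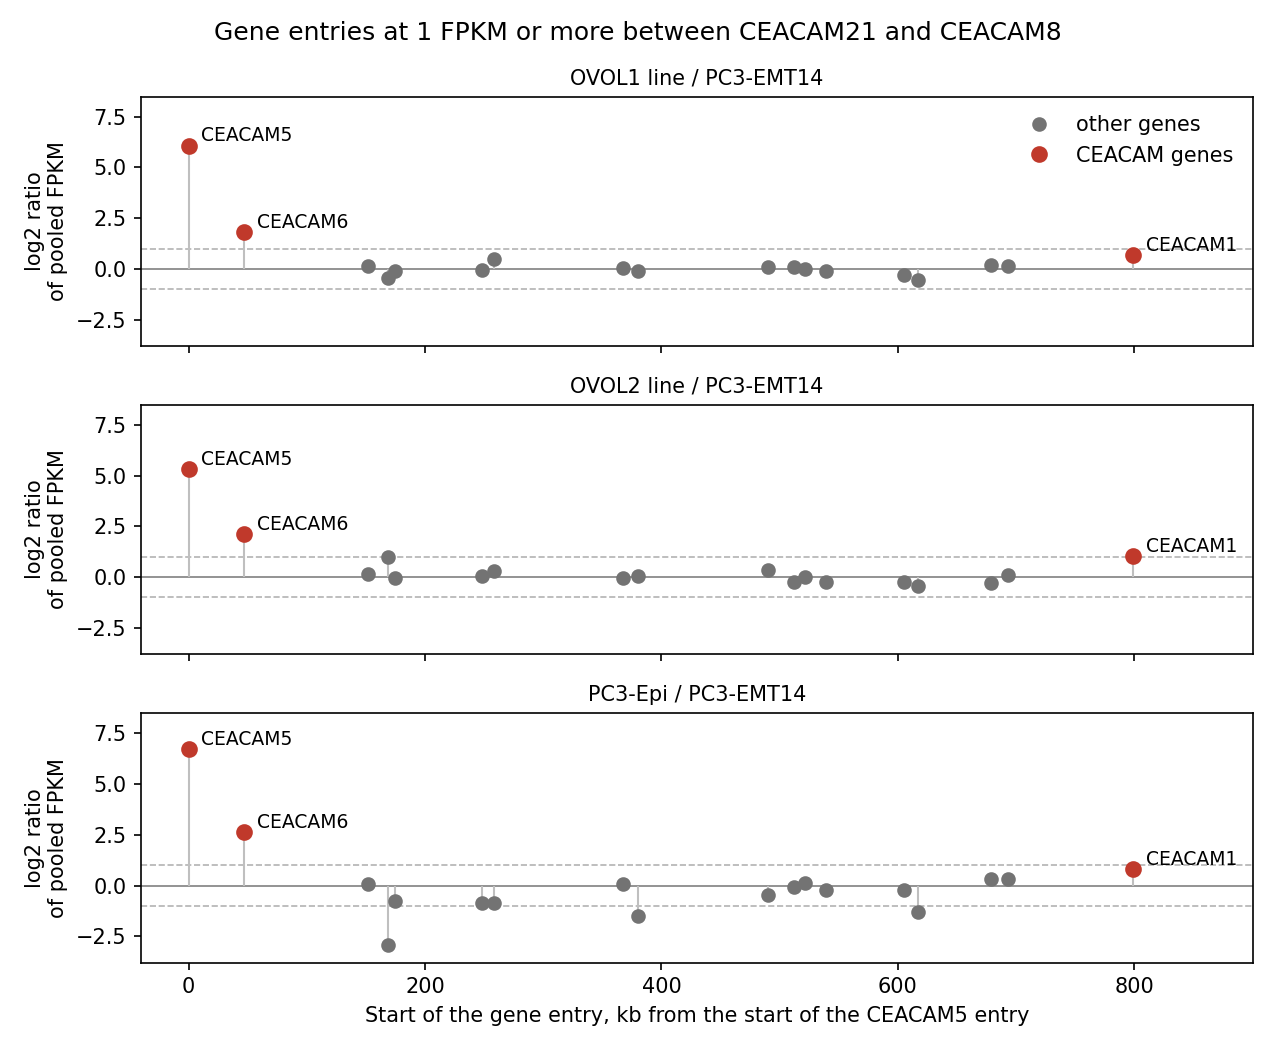
log2 ratio of pooled FPKM against PC3-EMT14 (vertical axis) for the 18 gene entries at 1 FPKM or more between CEACAM21 and CEACAM8, by distance in kb from the start of CEACAM5; red points are CEACAM genes, grey points other genes, and dashed lines mark 2-fold. CEACAM5 and CEACAM6 are high in all 3 panels, and of the 15 other genes none lies above the upper dashed line.

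Of the entries described here around EPCAM on chromosome 2, none was counted as higher or lower. Most genes were not counted either: 2.43%, 4.42% and 7.37% were higher in the OVOL1 line, the OVOL2 line and PC3-Epi, and 1.54%, 2.93% and 8.34% lower. CALM2, a calmodulin gene 192547 bases before EPCAM, was 1.16-fold, 1.24-fold and 1.32-fold higher than in PC3-EMT14 in the OVOL1 line, the OVOL2 line and PC3-Epi. FBXO11, 396054 bases after, had ratios of 0.91, 0.87 and 0.71. TTC7A, 293012 bases before, was nearest to the limit, with ratios of 1.41, 1.88 and 1.87. C2orf61 and KCNK12 were under 0.1 FPKM throughout, and MIR559, a microRNA gene inside the EPCAM locus, was listed at 0.

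The isoform tables give 1 entry for EPCAM, CEACAM5, CEACAM6 and CEACAM7 each, and 5 for CEACAM1. The tables give no exons for an isoform, so which CEACAM1 entries carry the long or the short cytoplasmic tail was not analysed here, and they are named by their identifiers. TCONS_00017931 was the main isoform in every line, at 2.12 FPKM in PC3-EMT14 in the table with the OVOL1 line, 3.22 FPKM in the OVOL1 line, 4.46 FPKM in the OVOL2 line and 4.605 FPKM in PC3-Epi. TCONS_00017933 was listed at 0 in every line.

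TCONS_00017934 did not follow the main isoform. It was at 0.382 FPKM in PC3-EMT14 in the table with the OVOL1 line, 1.09 FPKM in the OVOL1 line, 1.00 FPKM in the OVOL2 line and 0.429 FPKM in PC3-Epi. Its ratio to PC3-EMT14 was 2.86 and 2.66 in the OVOL lines and 1.10 in PC3-Epi. TCONS_00017935 was at 0.415, 0.534, 0.484 and 0.269 FPKM in the same order of lines, lowest in PC3-Epi.

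As shares of the gene, the main isoform held 70.5% in PC3-EMT14, 66.5% in the OVOL1 line, 72.7% in the OVOL2 line and 86.5% in PC3-Epi. TCONS_00017934 held 12.7%, 22.5%, 16.4% and 8.07%. The like total of CEACAM1 in the OVOL lines and PC3-Epi was thus made up differently, with the minor isoforms larger in the OVOL lines. These are low estimates without a spread, and isoforms of a gene share most of their reads.

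**Figure D5:**
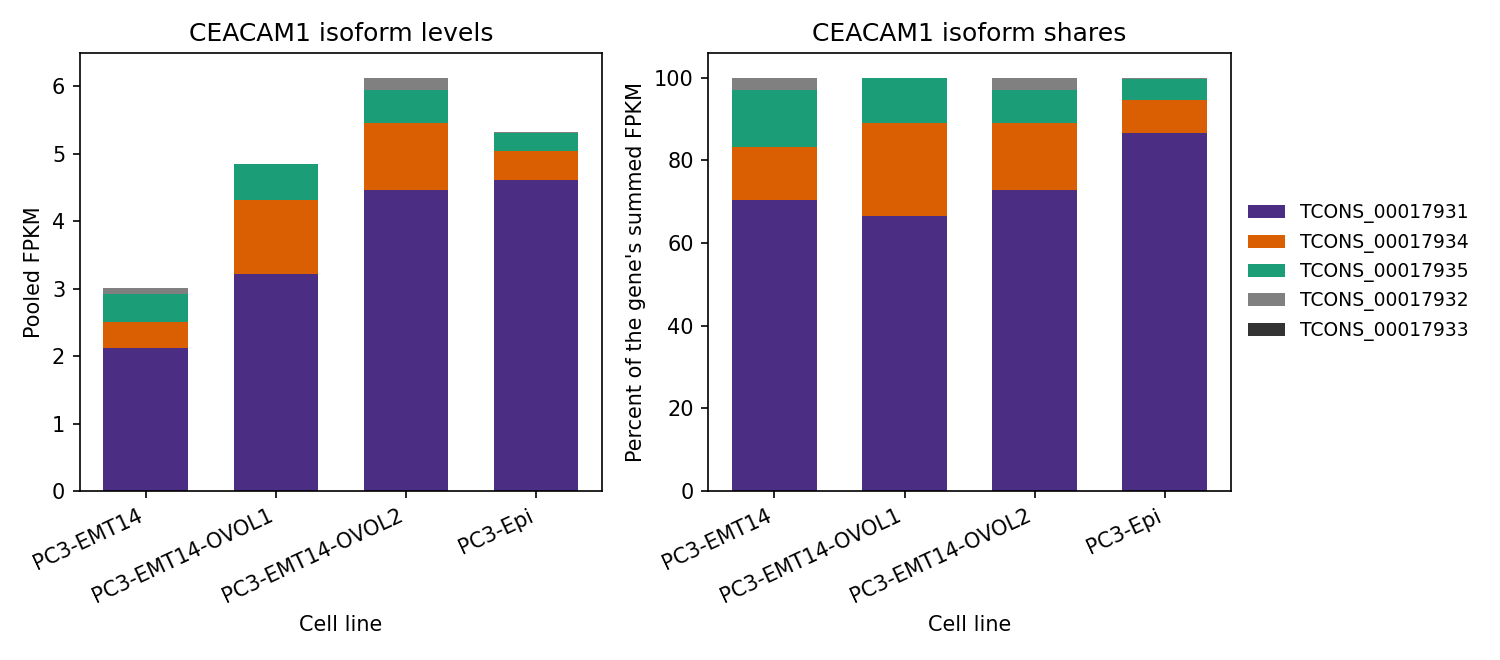
CEACAM1 isoforms in the 4 lines, as pooled FPKM (left) and as percent of the gene's summed FPKM (right); colours are the 5 isoform entries, and PC3-EMT14 is from its table with PC3-EMT14-OVOL1. TCONS_00017931 is the largest part in every line, from 66.5% in the OVOL1 line to 86.5% in PC3-Epi, and TCONS_00017934 is largest in the OVOL1 line at 22.5%.

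Of 20 genes whose products bind, cleave or signal with EPCAM, 19 reached 1 FPKM. In the OVOL1 line 2 of them were higher and 1 lower, in the OVOL2 line 4 were higher and 1 lower, and in PC3-Epi 4 were higher and 1 lower. Over all genes at 1 FPKM or more, 2.43%, 4.42% and 7.37% were higher and 1.54%, 2.93% and 8.34% lower in these comparisons. The median log2 ratios of the 19 were 0.04, 0.05 and 0.08, beside medians of -0.0018, -0.04 and -0.01 over all genes. The medians lay near those of all genes, and the list was chosen with results known, so nothing further is read from its counts.

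Claudin 7 (CLDN7), the tight junction protein that binds EPCAM, was at 11.5 to 11.9 FPKM in PC3-EMT14, 28.6 FPKM in the OVOL1 line, 73.9 FPKM in the OVOL2 line and 92.3 FPKM in PC3-Epi. Matriptase (ST14), a membrane serine protease that cleaves EPCAM, was at 0.515 to 0.532 FPKM in PC3-EMT14, 28.9 FPKM in the OVOL1 line, 55.8 FPKM in the OVOL2 line and 135 FPKM in PC3-Epi. These genes had the same order of lines as EPCAM and were the pair of the list that was higher in all 3. CLDN1 and SPINT1, an inhibitor of matriptase, were higher in the OVOL2 line and PC3-Epi, and in the OVOL1 line were 1.68-fold and 1.86-fold above PC3-EMT14.

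TSPAN8, a tetraspanin found in complexes with EPCAM, went the other way. It was at 11.8 to 12.2 FPKM in PC3-EMT14, 3.90 FPKM in the OVOL1 line, 4.26 FPKM in the OVOL2 line and 0.169 FPKM in PC3-Epi. CD44, also a partner of EPCAM, had ratios of 1.08, 1.199 and 1.19. The sheddases ADAM10 and ADAM17 had ratios between 0.89 and 1.13, and of the gamma-secretase genes the lowest ratio was 0.79, for PSENEN in PC3-Epi.

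Among 36 other adhesion genes of the immunoglobulin superfamily, 23 reached 1 FPKM in each OVOL comparison and 25 in that of PC3-Epi. In the OVOL1 line 1 was higher and 0 lower, where 2.43% of all genes were higher and 1.54% lower. In the OVOL2 line 2 were higher and 1 lower, where 4.42% of all genes were higher and 2.93% lower. In PC3-Epi 5 were higher and 4 lower, where 7.37% of all genes were higher and 8.34% lower. L1CAM, best known from neurons, was the gene of this list that was higher in all 3 lines, at 0.515 to 0.532 FPKM in PC3-EMT14 and at 1.15, 2.94 and 2.02 FPKM in the other lines. Median log2 ratios were 0.03, 0.12 and -0.08. Of the partners of the CEACAM1 tail, the phosphatases PTPN6 and PTPN11, the kinase SRC and the actin crosslinker FLNA, 0 of 4 were higher or lower in any comparison.

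The genes with log2 ratios most like those of a member, by Euclidean distance over the 3 comparisons with PC3-EMT14 among 12453 genes, were found as a description. These were DUSP8, OSTalpha and MYO5B for EPCAM, at distances of 0.26, 0.36 and 0.36. For CEACAM6 they were MMP15, SLC27A2 and DENND2D, at 0.23, 0.24 and 0.27. CEACAM5 had no gene so near: STEAP4, LCN2 and LOC728643 lay at 0.92, 1.01 and 1.03. In each comparison the CEACAM5 ratio stood above at least 99.65% of genes at 1 FPKM or more. Few genes lie there, so the larger distances are not read as a pattern of its own. The 3 ratios share the PC3-EMT14 libraries, and likeness over 3 values is weak.

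Markers of the lines moved as follows beside these results. Of 6 epithelial markers, 2 were higher in the OVOL1 line (CDH1 and OCLN), 3 in the OVOL2 line and 4 in PC3-Epi, and none was lower. CDH1, which encodes E-cadherin, was at 0.971 to 1.00 FPKM in PC3-EMT14, 16.2 FPKM in the OVOL1 line, 39.2 FPKM in the OVOL2 line and 50.6 FPKM in PC3-Epi. Of 4 mesenchymal markers, 0 were lower in the OVOL1 line, 3 in the OVOL2 line and 2 in PC3-Epi. In the same order of lines, 2.43%, 4.42% and 7.37% of all genes at 1 FPKM or more were higher and 1.54%, 2.93% and 8.34% lower. ZEB1, a repressor of epithelial genes, was at 7.36 to 7.59 FPKM in PC3-EMT14 and at 4.25, 1.77 and 0.130 FPKM in the other lines.

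EPCAM, CLDN7 and CDH1 shared the order of the lines, whereas CEACAM5 was 1.71-fold higher in the OVOL1 line than in the OVOL2 line. That difference is under the 2-fold limit and lies between single pooled values. ZEB1 was at 4.25 FPKM in the OVOL1 line and 1.77 FPKM in the OVOL2 line, and a link of ZEB1 to the level of any of these genes was not tested. In these bulk RNA values, a larger share of cells with a transcript and more transcript per cell cannot be told apart.

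Because PC3-EMT14 came from a co-culture and several CEACAM genes belong to white blood cells, markers of these were read as well. By the study's methods the co-cultured cells were passaged beside a culture of macrophages alone, to make sure that no macrophages outlived the passages. Of 12 macrophage markers, 11 were under 1 FPKM in every line, PTPRC and CD14 being at 0.0861 FPKM or less. The exception was CD68, a lysosomal protein also present in other cells, at 52.4 to 54.1 FPKM in PC3-EMT14, 51.2 and 57.8 FPKM in the OVOL lines and 13.2 FPKM in PC3-Epi. Summed over the list the level was 52.8 to 54.5 FPKM in PC3-EMT14, 51.8 FPKM in the OVOL1 line, 58.4 FPKM in the OVOL2 line and 13.7 FPKM in PC3-Epi, nearly all of it CD68, and TYROBP was listed at 0 outside PC3-EMT14. All 6 neutrophil markers, CEACAM3 and CEACAM8 among them, were under 1 FPKM in every line, and ELANE and CSF3R were listed at 0. Of 5 prostate luminal markers, 3 reached 1 FPKM in each comparison with PC3-EMT14. None was higher or lower in the OVOL lines, where 2.43% and 4.42% of all genes were higher and 1.54% and 2.93% lower. In PC3-Epi 1 was higher and 1 lower, beside 7.37% and 8.34% of all genes. TMPRSS2, a membrane serine protease, was the one higher, at 5.50 FPKM in PC3-Epi, and KLK3 and KLK2 were listed at 0 in every line. The part of other cells in the member values was not tested.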

How the data were processed

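RNA-seq of 10 samples in 4 lines was used, grouped by the sample labels. The authors mapped paired reads of 50 bases with TopHat to hg19 and compared the lines pairwise in Cuffdiff, with upper-quartile normalization and corrections for sequence bias and for reads with several places. The deposited tables hold FPKM per gene and per isoform, pooled by the authors over the samples of a line, and each of the 4 pairs was scaled on its own. A line in several tables differed between them by a near constant factor, with a median of 0.990 to 1.02 over genes. The tables also hold the authors' own comparisons (fold changes, test statistics, p-values and q-values), which were not used. There were 0 unused columns of single samples. The depth behind the pooled values is unknown and they carry no spread between samples, so they were given no interval, floor of detection or test, and replicates were not compared. The reads were not analysed here.

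Ratios of FPKM were taken within a table with no pseudocount, in Python 3.11.15 with numpy 2.4.6 and pandas 2.3.3. A gene counted as higher or lower at 2-fold and 1 FPKM or more in the higher line, and the background is the same rule over all genes. The code of the rule was checked on simulated pairs whose set changes lay well over the limit, in genes well above the floor. Without the noise of reads or samples, that outcome was fixed beforehand and says nothing about calls at low levels. Pairwise alignments used Biopython 1.88, and plots matplotlib 3.10.9. Annotation and transcripts were GENCODE v44lift37, on the assembly of hg19. Promoters were from RefSeq (GRCh38.p14) and were placed on hg19 by exact match.

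The genes, lists and alternatives were chosen with earlier results of these data known. Named were every member, the genes of each list higher or lower in all 3 comparisons with PC3-EMT14 (at most 6 a list), the 3 nearest entries on each side of a member, and the 3 genes most alike to EPCAM, CEACAM5 and CEACAM6. Other list genes were named after their values were seen. Some genes that this rule or a list holds are not reported here.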

Additional observations from a re-analysis of the deposited data

How the results depend on the processing

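With 1 pooled value per line and no spread, a ratio was taken as moved when it shifted by over 1.5-fold. The count of members higher than in PC3-EMT14 stayed within 1.5 times of its value under limits of 1.5-fold, a floor of 0.1 FPKM, no floor, 1 FPKM added to each value, centring on the median ratio, summed isoforms and the PC3-EMT14 value of another table, in all 3 comparisons. With counts of 3 or 4, that tolerance does not register 1 member gained or lost, and members did change. With 1 FPKM added, CEACAM6 dropped out in the OVOL1 line and CEACAM1 in the OVOL2 line. CEACAM1 also dropped out there at 4-fold and with the PC3-EMT14 value of the table with PC3-Epi. At 1.5-fold CEACAM1 was added in the OVOL1 line and PC3-Epi, and with no floor CEACAM7 was. At 4-fold the count was 1 in the OVOL1 line, CEACAM5, in place of 3. Between the OVOL lines, 1.5-fold gave 1 member higher and 1 lower in place of 0 and 0, and no floor gave 1 lower, CEACAM7. Of 95 recomputed log2 ratios, 85 moved by less than 1.5-fold, 10 moved and 0 changed sign. The 10 all came from the added 1 FPKM, in CEACAM5, CEACAM6 and CEACAM7, whose values are low beside that constant. Only the added 1 FPKM was able to move a ratio that far. The other settings summed the same values or scaled all genes by a near constant factor. Their unmoved ratios are therefore no sign of stability. Adding the same 1 FPKM to both values keeps the sign of a ratio. None of the settings was thus able to change a sign here, and that count of 0 was fixed beforehand. Of 28 CEACAM1 isoform shares, 0 moved when isoforms under 0.1 FPKM were left out, which removed only small parts of the gene.

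No paired analysis was possible because the tables hold no values of single samples, and for the same reason leaving out a replicate was not possible. Unknown depth limits most the values under 1 FPKM, above all those of CEACAM7 and of CEACAM5 in PC3-EMT14.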
